A study of Mus musculus with 12 samples.

Results

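The genotype difference in mouse heart RNA was taken over both treatments of the study at once, from 6 libraries labelled PDE10A knockout (KO) and 6 labelled PDE10A wild type (WT). All 12 libraries of the series entered the comparison, and no library was left out. Throughout, KO and WT mean the libraries labelled so, because Pde10a itself was higher in the libraries labelled KO. Each was made from heart tissue of the C57BL/6J strain and carries its own mouse number, with 3 libraries in each of 4 groups: WT given vehicle, WT given doxorubicin (DOX), KO given vehicle and KO given DOX. DOX, an anthracycline cancer drug, is known to injure heart muscle. Per the labels' protocols it was given once into the peritoneum at 15 mg/kg and followed over 7 days, and the vehicle was DMSO in β-cyclodextrin. The protocols also describe the PDE10A inhibitor TP-10, which is on no label of these libraries. The ages of the mice, the design of the Pde10a allele, the cells in which it is inactive, the breeding of the WT mice and the hour at which hearts were taken do not appear in the sources used here. Mice are named by the numbers in the titles, except that the KO vehicle mice, which have longer numbers, are called A, B and C in the order of those numbers. Values of a group are given in the order of its mice, and no number pairs a KO mouse with a WT mouse.

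PDE10A is a phosphodiesterase, an enzyme that hydrolyses cAMP and cGMP, the second messengers, and so ends signals from hormone receptors. In the heart these messengers set the force and rate of beating through protein kinases that act on calcium handling, and they are kept apart in small compartments by several phosphodiesterases. Doxorubicin poisons topoisomerase in heart muscle cells, damages DNA and mitochondria, and switches on targets of the tumour suppressor p53. The comparison asks which genes differ between the genotypes by a like amount with and without the drug.

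Expression was measured as reads per gene, given as CPM, the count relative to a TMM-scaled library size. Library totals ran from 23846398 to 32921876 counts, and the biological coefficient of variation between mice was 17.5%. The summed level of 12 defining cardiomyocyte markers was between 58228 and 94826 CPM in every library. Ddx3y, encoded on the Y chromosome, was between 24.6 and 78.4 CPM in all 12 libraries. Some libraries stood apart. KO vehicle mouse B and KO DOX mouse 18 had the atrial light chain Myl7 at 542 and 543 CPM, against at most 14.01 CPM in the other 10 libraries. WT vehicle mouse 2 had 19.5% of its counts on mitochondrially encoded genes, against 24.4% to 33.6% elsewhere. On the first principal component the score of WT DOX mouse 21 was 6.81, near those of KO DOX mice 20 (3.22) and 19 (17.3) and away from WT DOX mice 22 (41.6) and 24 (40.4). Transcripts of kidney tubules, a list chosen after its values were seen and led by Kap, summed to between 1.21 and 31.6 CPM in the KO libraries and to between 0.209 and 0.759 CPM in the WT libraries. Kap (log2 difference 4.96), Slc34a1 (226 counts in KO and 8 in WT libraries) and Acsm2 (168 and 5 counts) are among the genes called higher below. The part of kidney transcripts in the other results was not tested. In tissue RNA, fewer cells of a type and less RNA per cell cannot be told apart.

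Of 14757 genes tested, 433 passed an adjusted p of 0.05 (edgeR quasi-likelihood test with treatment as an additive term, Benjamini-Hochberg adjustment over all genes tested), which is 2.93%. In the KO libraries 250 of them (1.69% of genes tested) were higher and 183 (1.24%) lower. A gene was counted as alike under both treatments when it was called on the average and when its KO less WT differences under vehicle and under DOX, estimated separately, had the same sign with the smaller at least 0.5 of the larger. By that rule 353 genes were alike (2.39% of those tested), 205 higher and 148 lower. The other 80 called genes also had the same sign under both treatments, but the difference was larger under vehicle for 53 and larger under DOX for 27. Being called on the average itself favours genes of that kind, so the share that was alike, 81.5% of called genes against 22.5% of all genes tested, describes the selection and is no separate evidence. Among the 353, 319 are protein-coding, 22 are long noncoding RNAs, 5 are pseudogenes and 7 had no position in the annotation used.

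Most of these differences were small. The median size was 0.50 on the log2 scale over the 433 called genes and 0.16 over all genes tested, and 61 of the 353 exceeded 2-fold, 41 higher and 20 lower. For 306 of the 353 the KO and WT libraries did not overlap within vehicle nor within DOX, as held for 5.75% of all genes tested. For 216 all 6 KO libraries lay on one side of all 6 WT libraries, as held for 3.16%. The 353 were chosen from the same libraries by a rule that favours such genes, so both counts describe the selection and are no separate evidence. Within vehicle alone 425 genes were called in the fit with a mean for each group (2.88%) and within DOX alone 62 (0.420%). The test of the difference between the treatments called 31 (0.210%), none of which was among the 433, and gave 2365 genes an unadjusted p under 0.05 (edgeR). A difference that changes between treatments adds to the spread in the averaged fit, so this lack of overlap is partly built in. Of the 433, 150 were also called under vehicle, 36 under DOX and 17 under both, and 264 were called in neither.

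**Figure D1:**
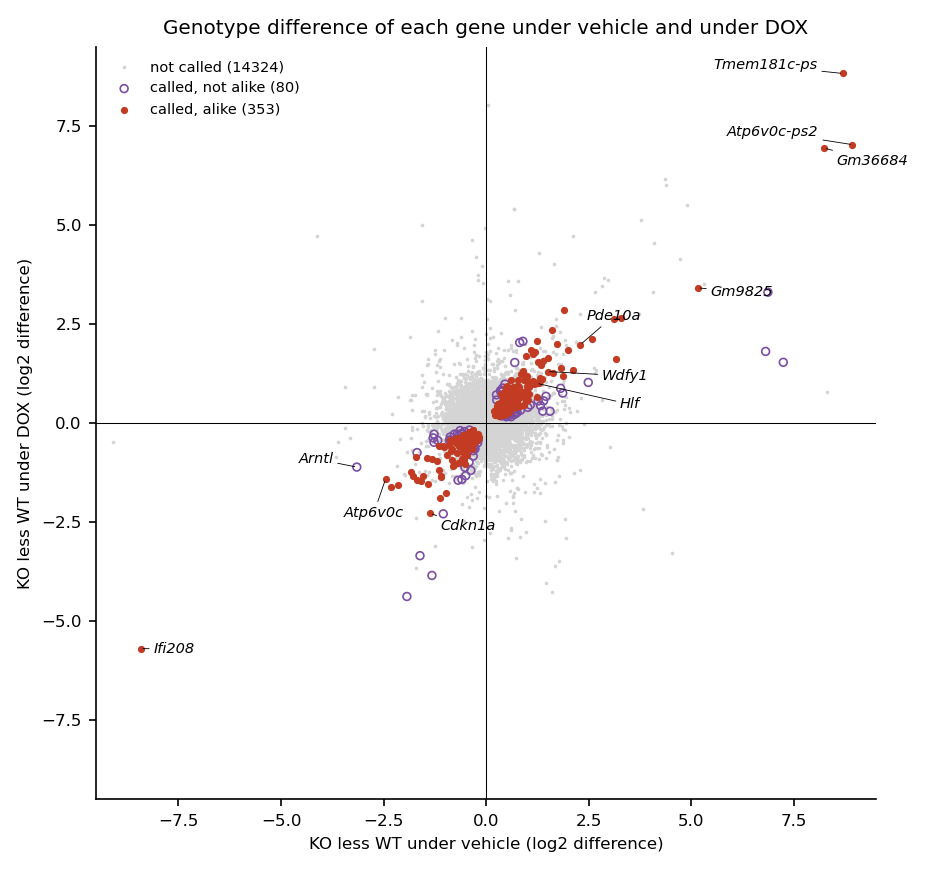
Genotype difference of each of the 14757 genes tested, as the KO less WT log2 difference under vehicle (horizontal axis) and under DOX (vertical axis). Filled red points are the 353 genes called on the average and alike under both treatments, open purple circles the 80 called genes that were not alike, and grey points genes not called. Called genes lie at the lower left and the upper right, most of them within 2 log2 units of the centre.

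The 2 treatments were also fitted as separate experiments of 6 libraries with none in common, a comparison added after seeing the data. The vehicle libraries alone called 222 genes and the DOX libraries alone 5. All 5 were also called by the vehicle libraries in the same direction: Pde10a, Wdfy1, Tmem181c-ps, Atp6v0c-ps2 and Gm36684, of which the last is outside the rule for named genes and is named after its values were seen. Of the vehicle calls, 216 were also tested in the DOX libraries, where 138 (63.9%) had the same sign. In the DOX libraries 63 of the vehicle calls had an unadjusted p under 0.05 (edgeR), as did 2065 of all 14251 genes tested there. Over the 13907 genes tested in both, 55.1% had the same sign, and across these genes, which do not vary independently, Pearson's r was 0.28 and Spearman's rho was 0.14.

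Pde10a itself was higher in the libraries labelled KO. Its direction is opposite to a loss of the transcript, and every direction in this text therefore refers to the labels. Pde10a is at chr17:8525372-8986648 in GRCm38. In the WT vehicle libraries it was at 3.38, 1.00 and 1.86 CPM and in the WT DOX libraries at 2.696, 2.08 and 1.79 CPM. In the KO vehicle libraries it was at 9.31, 11.9 and 9.13 CPM and in the KO DOX libraries at 8.27, 8.49 and 9.09 CPM. Each of the 6 KO libraries was above each of the 6 WT libraries. The difference was 2.14 on the log2 scale (SE 0.22, adjusted p = 0.000392, edgeR), 2.30 under vehicle and 1.98 under DOX. Counts summed over the whole gene do not say which exons the reads came from, and whether part of the gene was deleted was not tested.

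The genes with the clearest separation included one with no near-identical copy called here. Wdfy1, on chromosome 1, encodes an adaptor protein of early endosomes. Its level was 9.71, 7.94 and 9.28 CPM in WT vehicle hearts, 9.81, 9.54 and 10.9 CPM in WT DOX hearts, 23.8, 25.4 and 26.8 CPM in KO vehicle hearts and 23.7, 26.1 and 25.0 CPM in KO DOX hearts. The KO mean of 25.1 ± 1.25 CPM (SD, n = 6) stood against a WT mean of 9.54 ± 0.967 CPM (SD, n = 6), a log2 difference of 1.40 (SE 0.08, adjusted p = 1.32e-06, edgeR) that was 1.498 under vehicle and 1.30 under DOX. Wdfy1 belongs to a list of genes reported to vary among substrains of C57BL/6, of which 19 were tested, 3 were higher and 1 was lower (21.1% called, against 2.93% of all genes). The other higher members were Nnt, the mitochondrial transhydrogenase, and Adcy5, an adenylyl cyclase that makes cAMP in heart muscle.

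Nnt, of which the C57BL/6J substrain is known to carry a deletion, was not alike under the 2 treatments. It was at 515, 352 and 428 CPM in WT vehicle hearts and 1223, 994 and 1156 CPM in KO vehicle hearts, a log2 difference of 1.38. Under DOX the WT hearts had 582, 587 and 603 CPM and the KO hearts 819, 733 and 632 CPM, a log2 difference of 0.30. The averaged difference of 0.84 (SE 0.18) had an adjusted p of 0.0354 in edgeR. Nnt was called in 6 of 12 fits that each left out 1 library, and lost without KO DOX mouse 18, WT vehicle mice 2 or 3, or any of the 3 KO vehicle mice, with adjusted p up to 0.103.

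**Figure D2:**
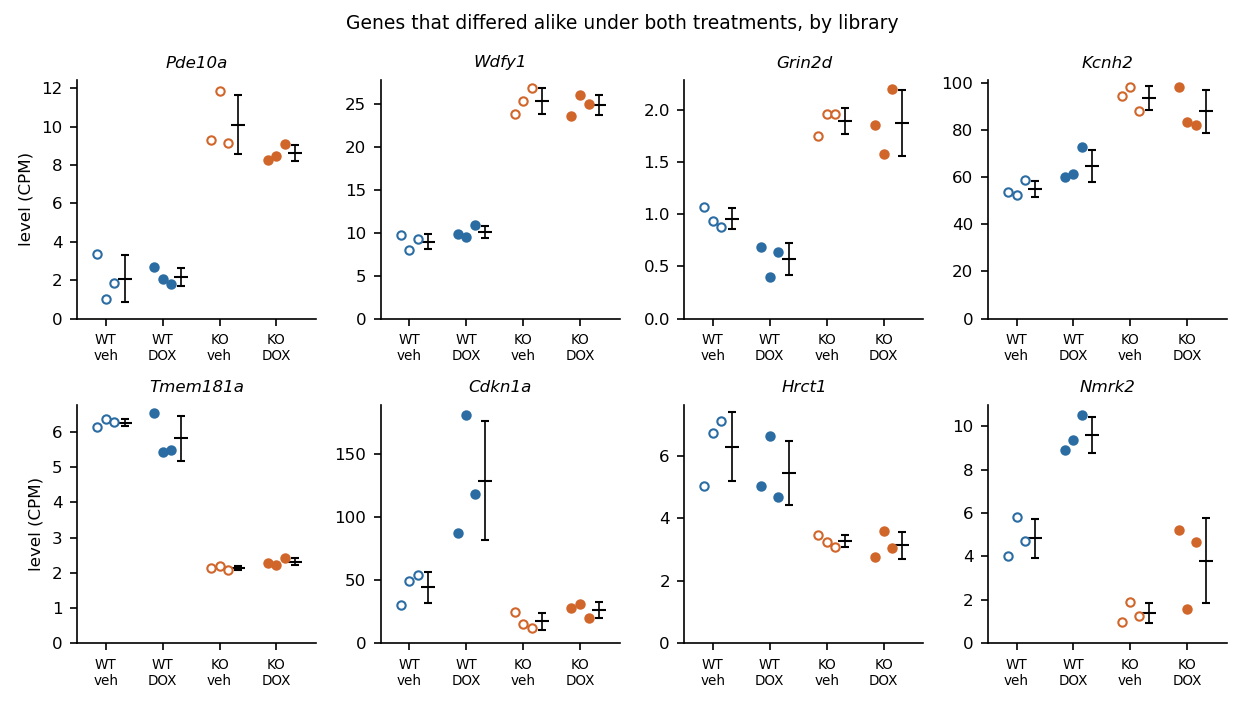
Level of 8 genes in each library (vertical axis, CPM), with WT in blue, KO in orange, vehicle as open and DOX as filled points. Black bars give the mean and SD of the 3 libraries of a group. Pde10a, Wdfy1, Grin2d and Kcnh2 are higher and Tmem181a, Cdkn1a, Hrct1 and Nmrk2 lower in the KO libraries under each treatment.

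Several of the largest differences were pairs of a gene on chromosome 17 and a related copy that moved the opposite way. Atp6v0c encodes the membrane subunit that turns in the proton pump of lysosomes, and lies at chr17:24163866-24169702. Its processed pseudogene Atp6v0c-ps2 lies at chr6:37806086-37806550. In the annotation used, 464 of the 465 bases of the pseudogene equal the coding sequence of Atp6v0c, and the only difference is T111C, counted from 1 at the start codon with the gene's base first. The 100 bases around that position are shown because it is the only base of the pseudogene that differs from the coding sequence, with the base that differs in capitals:
Atp6v0c: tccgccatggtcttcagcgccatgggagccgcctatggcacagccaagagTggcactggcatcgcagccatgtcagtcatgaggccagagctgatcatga
Atp6v0c-ps2: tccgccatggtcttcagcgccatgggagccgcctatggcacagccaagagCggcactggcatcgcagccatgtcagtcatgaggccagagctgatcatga

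Counts assigned to Atp6v0c were lower and those assigned to the pseudogene higher in the KO libraries. Atp6v0c-ps2 was between 0 and 0.144 CPM in the 6 WT libraries. It was at 20.4, 23.5 and 19.9 CPM in KO vehicle hearts and at 21.4, 11.9 and 12.2 CPM in KO DOX mice 18, 19 and 20. Atp6v0c was between 33.8 and 52.1 CPM in the WT libraries, at 7.03, 7.51 and 6.06 CPM in KO vehicle hearts and at 5.71, 23.4 and 24.9 CPM in KO DOX mice 18, 19 and 20. KO DOX mice 19 and 20 thus lay between the other 4 KO mice and the WT mice for both genes. The log2 differences were 7.76 (SE 0.31, adjusted p = 2.96e-08) for the pseudogene and -1.92 (SE 0.30, adjusted p = 0.00985) for the gene, both from edgeR. When the counts of both were summed before the fit, the total was 30.6 ± 4.63 CPM in KO and 42.9 ± 6.53 CPM in WT hearts (SD, n = 6 each), a log2 difference of -0.48 (SE 0.09, adjusted p = 0.0194, edgeR).

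A second pair had the same form. Rnps1, at chr17:24414565-24425901, encodes an RNA-binding protein of the exon junction complex, and Gm9825, at chr6:7982541-7983383, is a processed pseudogene whose 843 bases match the Rnps1 coding sequence at all but 5 positions. A stretch of 100 bases that holds 2 of these positions is shown for comparison with the first pair, with the differing bases in capitals:
Rnps1: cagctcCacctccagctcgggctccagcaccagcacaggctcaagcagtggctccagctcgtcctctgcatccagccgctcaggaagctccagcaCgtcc
Gm9825: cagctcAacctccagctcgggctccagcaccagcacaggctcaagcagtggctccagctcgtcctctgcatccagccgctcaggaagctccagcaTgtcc

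Gm9825 was between 0.0691 and 0.400 CPM in WT hearts, at 6.12, 5.77 and 5.505 CPM in KO vehicle hearts and at 6.07, 3.22 and 2.62 CPM in KO DOX mice 18, 19 and 20 (log2 difference 4.15, SE 0.37, adjusted p = 9.62e-05, edgeR). Rnps1, named after its values were seen, was at 14.1, 14.1 and 14.2 CPM in KO vehicle hearts and at 14.02, 18.5 and 18.8 CPM in the same 3 KO DOX mice, and ran from 18.03 to 30.7 CPM in WT hearts (log2 difference -0.60, SE 0.10, adjusted p = 0.0102, edgeR). KO DOX mice 19 and 20 lay between the other KO mice and the WT mice for Gm9825, and just inside the WT range for Rnps1. The sum of both was 20.5 ± 0.838 CPM in KO and 24.01 ± 4.46 CPM in WT hearts (SD, n = 6 each), and its log2 difference of -0.22 (SE 0.09) had an adjusted p of 0.188 in edgeR.

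All 5 pseudogenes among the 353 alike genes had their closest coding relative on chromosome 17, by shared words of 40 bases, a search made after their values were seen. Gm14292 on chromosome 2 shared 75.1% of its words with Wtap, a subunit of the mRNA adenosine methyltransferase, and differed from its coding sequence at 3 of 453 aligned bases. It was between 0 and 0.178 CPM in WT and between 0.304 and 0.659 CPM in KO hearts (log2 difference 2.34, SE 0.45, adjusted p = 0.0226, edgeR), and its call was lost without KO DOX mouse 20, WT vehicle mouse 3, or KO vehicle mice B or C (adjusted p up to 0.0786). Wtap itself differed by -0.11 (adjusted p = 0.390, edgeR). A pseudogene that was called but not alike, Gm17853 on chromosome 9, shared no such word with another annotated transcript.

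The Tmem181 family holds the other 2 pseudogenes. Tmem181b-ps and Tmem181c-ps shared 34.5% and 67.3% of their words of 40 bases with Tmem181a, and neither was aligned with it. Tmem181a, a transmembrane protein gene at chr17:6256860-6308314, was at 6.14, 6.36 and 6.27 CPM in WT vehicle, 6.54, 5.42 and 5.47 CPM in WT DOX, 2.13, 2.19 and 2.09 CPM in KO vehicle and 2.28, 2.23 and 2.43 CPM in KO DOX hearts, a log2 difference of -1.44 (SE 0.10, adjusted p = 7.13e-06, edgeR). Its neighbour Tmem181b-ps, named after its values were seen, was higher by 0.86 (SE 0.15, adjusted p = 0.0138, edgeR). Tmem181c-ps had 312 counts over the 6 KO libraries, from 36 to 61 in each, and 0 in all 6 WT libraries, which is at least 18.4-fold higher when each WT library is given a limit of 3 counts. Summed over the 3 genes, the level was 10.7 ± 0.374 CPM in KO and 9.58 ± 1.13 CPM in WT hearts (SD, n = 6 each), with a log2 difference of 0.16 (SE 0.09) and an adjusted p of 0.310 in edgeR. For Tmem181a KO DOX mice 19 and 20 lay with the other KO mice.

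**Figure D3:**
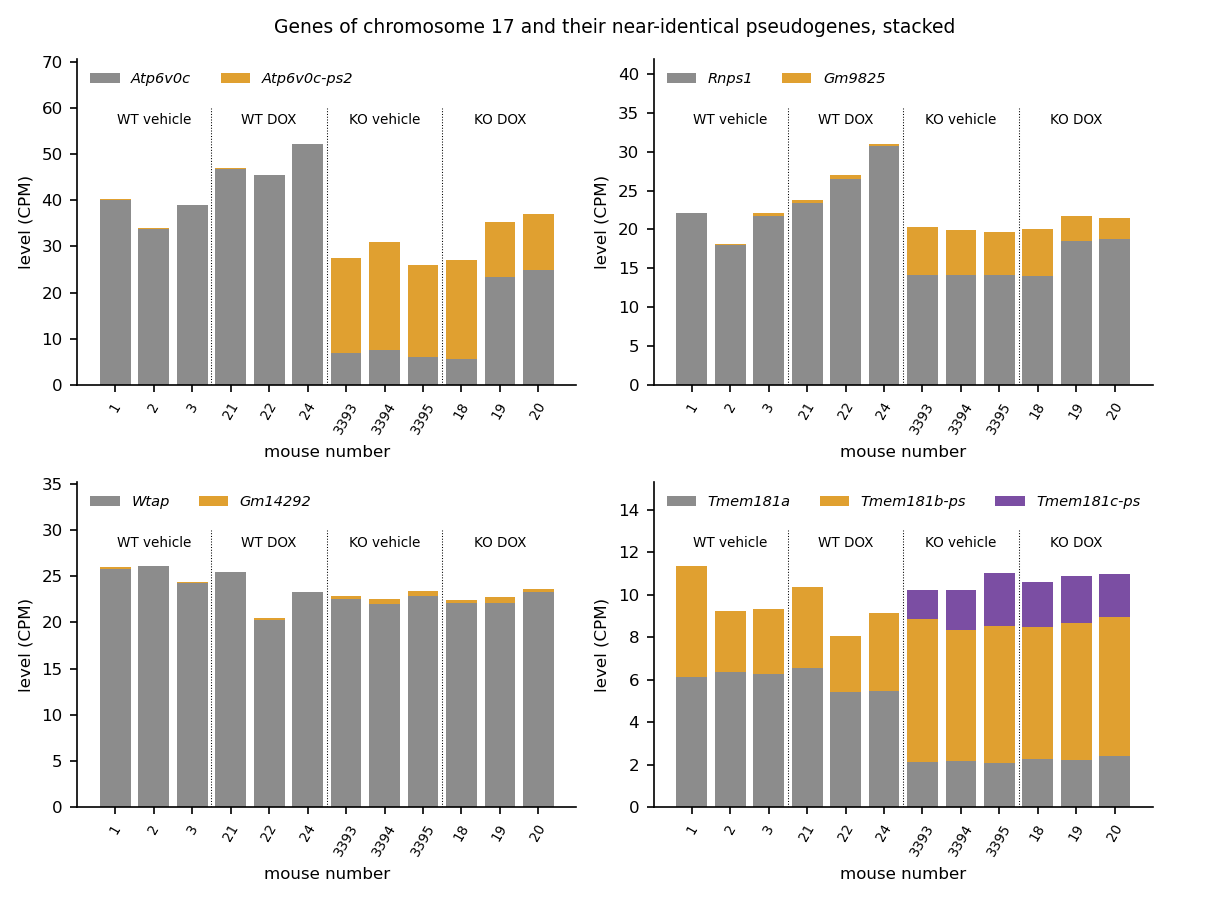
Level in CPM (vertical axis) of 4 chromosome 17 genes, in grey, with related pseudogenes stacked on top in colour, in each of the 12 libraries (horizontal axis, by mouse number). The Tmem181 pseudogenes were not aligned with Tmem181a. The pseudogene part is near 0 for Atp6v0c-ps2, Gm9825 and Tmem181c-ps in the WT libraries, and the total of each stack differs less between WT and KO than the part given to the gene.

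How the authors' counting treated reads that match more than 1 place does not appear in the sources used here, so the levels of single members of such families are uncertain. Another family with a near copy was Rsph3b, a radial spoke protein gene of cilia at chr17:6904413-6948682. It was at 11.8, 11.0 and 11.3 CPM in WT vehicle, 14.3, 15.7 and 15.3 CPM in WT DOX, 5.59, 7.28 and 6.57 CPM in KO vehicle and 5.91, 7.76 and 7.55 CPM in KO DOX hearts (log2 difference -0.95, SE 0.10, adjusted p = 0.000392, edgeR). Rsph3a did not move the opposite way (-0.04, adjusted p = 0.887), and the sum of both was lower by -0.60 (SE 0.09, adjusted p = 0.00852), all from edgeR.

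Chromosome 17, which carries Pde10a, held 43 called genes among 708 tested (6.07%), of which 36 were alike, against 381 of 13972 (2.73%) on the other chromosomes. Among the other autosomes and the X chromosome the highest called share was 3.72%, on chromosome 16. Within chromosome 17 the called share was uneven with distance from Pde10a. From 6 to 2 megabases before it 4 of 19 genes were called, within 2 megabases on either side 3 of 18 with Pde10a among them, and from 2 to 5 megabases after it 3 of 19. None of 30 was called from 5 to 10 megabases after it, 9 of 35 from 10 to 15 and 10 of 133 from 15 to 20. Farther out 5 of 192 were called from 20 to 30 megabases, 2 of 81 from 30 to 40 and 7 of 181 from 40 to 90.

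**Figure D4:**
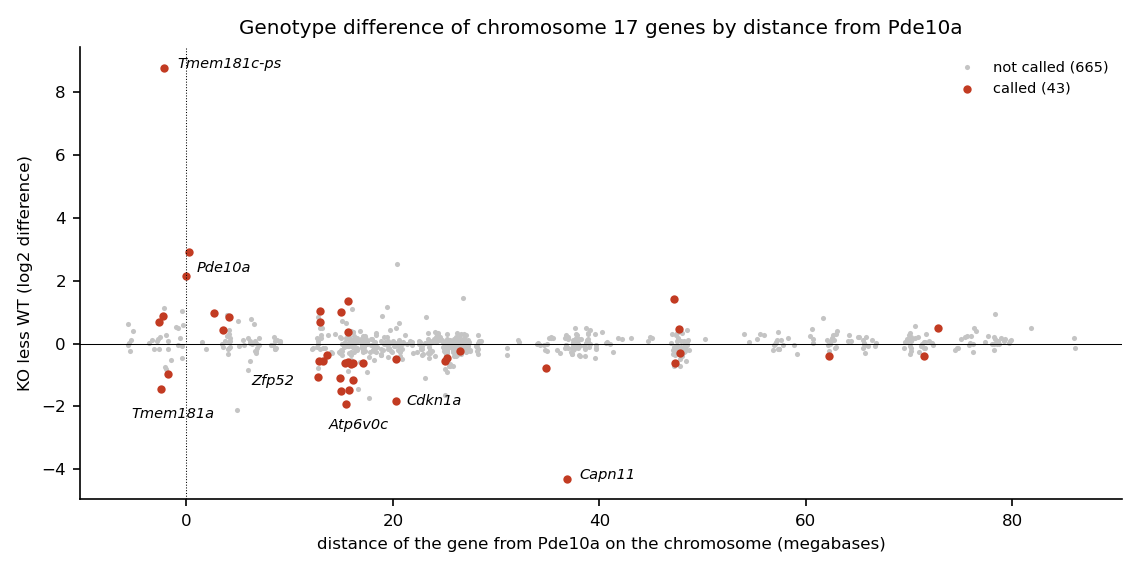
KO less WT log2 difference (vertical axis) of the 708 tested genes of chromosome 17 by their distance from Pde10a in megabases (horizontal axis, 0 at Pde10a). Red points are the 43 called genes. Calls are clustered within 5 megabases of Pde10a and between 10 and 20 megabases beyond it.

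Of the 9 genes called 10 to 15 megabases beyond Pde10a, 6 have Zfp symbols, given to genes for zinc finger proteins, as do 23 of the 35 tested there. They moved both ways: Zfp983 and Zfp760 were higher and Zfp52, Zfp948, Zfp943 and Zfp944 lower, all but Zfp52 named after their values were seen. Zfp52 was at 13.0, 11.3 and 10.2 CPM in WT vehicle, 11.8, 14.3 and 16.4 CPM in WT DOX, 5.59, 5.06 and 4.48 CPM in KO vehicle and 5.04, 8.89 and 8.05 CPM in KO DOX hearts (log2 difference -1.06, SE 0.14, adjusted p = 0.00441, edgeR). As for Atp6v0c and Rnps1, KO DOX mice 19 and 20 were the KO mice nearest to WT. Zfp983 was higher in every KO library, between 4.12 and 6.499 CPM against 1.99 to 3.29 CPM in WT (log2 difference 1.04, SE 0.15, adjusted p = 0.0074, edgeR). Pkmyt1, a kinase that restrains entry into mitosis, is another of the 9 and was lower, between 0.394 and 1.10 CPM in KO and 1.74 to 2.94 CPM in WT hearts (log2 difference -1.52, SE 0.25, adjusted p = 0.0102, edgeR).

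Cdkn1a, which encodes the cell cycle inhibitor p21 and is a main target of p53, is also on chromosome 17, at chr17:29090976-29100727, and was lower in KO under both treatments. WT vehicle hearts had 30.5, 49.3 and 53.6 CPM and KO vehicle hearts 24.7, 15.0 and 12.2 CPM. With DOX the WT hearts had 87.4, 180 and 118 CPM and the KO hearts 27.9, 31.4 and 19.8 CPM. The groups did not overlap within either treatment, although KO DOX mouse 19 was above WT vehicle mouse 1. The averaged log2 difference was -1.83 (SE 0.26, adjusted p = 0.0064, edgeR), with -1.36 under vehicle and -2.28 under DOX. Of 27 tested p53 targets 2 were called (7.41%, against 2.93% of all genes), while 18 had differences below 0 and 9 above. Cdkn1a was called lower and Ccng1, cyclin G1, higher, at 819, 686 and 718 CPM in WT vehicle, 781, 591 and 641 CPM in WT DOX, 975, 1004 and 1126 CPM in KO vehicle and 849, 931 and 1020 CPM in KO DOX hearts (log2 difference 0.48 under each treatment and on the average, SE 0.09, adjusted p = 0.019, edgeR). The call of Ccng1 was lost without KO DOX mouse 20, WT vehicle mouse 3 or KO vehicle mouse C, with adjusted p up to 0.0653.

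Circadian clock genes differed in both directions. The clock is a loop in which Arntl (BMAL1) pairs with Clock or its homologue Npas2 to activate genes through E-box sequences. Among those targets are its own repressors, the Per, Cry, Nr1d, Bhlhe and Ciart genes, and the transcription factors Dbp, Tef and Hlf, which act on D-box sequences of output genes. Of 22 core clock genes 4 were higher and 3 lower (31.8% called, against 2.93% of all genes), and 6 of these 7 were alike. Of 18 output genes 4 were higher and 1, Cdkn1a, lower (27.8%), and 3 of these 5 were alike.

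Among the activators Npas2 fell from 4.14, 3.25 and 3.21 CPM in WT vehicle to 2.20, 1.66 and 2.09 CPM in KO vehicle hearts, and was at 3.81, 7.35 and 5.82 CPM in WT DOX against 2.91, 3.44 and 2.505 CPM in KO DOX hearts (log2 difference -0.89, SE 0.17, adjusted p = 0.0202, edgeR). Without KO DOX mouse 20 or KO vehicle mouse B its call was lost (adjusted p up to 0.0549). Clock was lower by -0.60 under vehicle and -0.34 under DOX (average -0.47, SE 0.08, adjusted p = 0.0144, edgeR). Its KO libraries were below the WT libraries of the same treatment, but KO DOX mouse 19, at 40.2 CPM, was above WT vehicle mice 2 (33.8 CPM) and 3 (36.0 CPM).

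Arntl had the largest fall among the core genes but was not alike. It was at 13.1, 13.0 and 8.57 CPM in WT vehicle and 0.95, 1.06 and 1.92 CPM in KO vehicle hearts, a log2 difference of -3.15. With DOX it was at 8.09, 15.7 and 9.70 CPM in WT and 4.02, 8.27 and 3.12 CPM in KO hearts, where the groups overlapped and the log2 difference was -1.11. The averaged call (-2.03, SE 0.39, adjusted p = 0.0233, edgeR) was lost without KO DOX mouse 20, WT vehicle mouse 3 or any of the 3 KO vehicle mice, with adjusted p up to 0.0735.

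The higher members were on the repressor and output side. Ciart, a repressor of the Arntl and Clock pair, was at 7.84, 3.52 and 9.13 CPM in WT vehicle, 8.41, 3.09 and 5.59 CPM in WT DOX, 18.7, 15.7 and 14.8 CPM in KO vehicle and 12.3, 17.9 and 19.6 CPM in KO DOX hearts (log2 difference 1.41, SE 0.25, adjusted p = 0.0155, edgeR). Per3 ran from 14.7 to 28.8 CPM in WT and from 36.1 to 56.6 CPM in KO hearts (1.078, SE 0.15, adjusted p = 0.00514, edgeR). Bhlhe41 ran from 11.9 to 20.6 CPM in WT and from 23.9 to 29.0 CPM in KO hearts (0.73, SE 0.12, adjusted p = 0.0127, edgeR). For all 3 genes the 6 KO libraries lay above the 6 WT libraries. Nr1d2, the fourth and outside the rule for named genes, had a difference of 0.39 (SE 0.09, adjusted p = 0.0358, edgeR) that was called in 2 of the 12 fits with 1 library left out, those without mouse 1 of WT vehicle or mouse 21 of WT DOX.

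Hlf and Tef, of the D-box family, rose alike. Hlf was at 19.9, 16.4 and 21.5 CPM in WT vehicle, 18.3, 13.98 and 20.4 CPM in WT DOX, 42.5, 44.4 and 48.8 CPM in KO vehicle and 41.9, 30.0 and 33.9 CPM in KO DOX hearts (log2 difference 1.12, SE 0.12, adjusted p = 0.000392, edgeR). Tef was between 94.8 and 162 CPM in WT and between 190 and 249 CPM in KO hearts (0.80, SE 0.13, adjusted p = 0.0108, edgeR). Dbp, the third of the family, was higher in every KO library but not alike, with 73.2, 64.2 and 72.8 CPM against 128, 133 and 109 CPM under vehicle (0.82) and 48.6, 10.0 and 21.1 CPM against 107, 98.4 and 121 CPM under DOX (2.03). Its averaged call (1.42, SE 0.32, adjusted p = 0.0384, edgeR) was made in 3 of the 12 fits, those without WT vehicle mouse 1 or WT DOX mice 21 or 22. Nr1d1 and Per2 were not called: Nr1d1 differed by -0.73 under vehicle and 1.16 under DOX (adjusted p = 0.736 on the average), and Per2 by 1.47 and 0.21 (adjusted p = 0.114), both from edgeR.

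**Figure D5:**
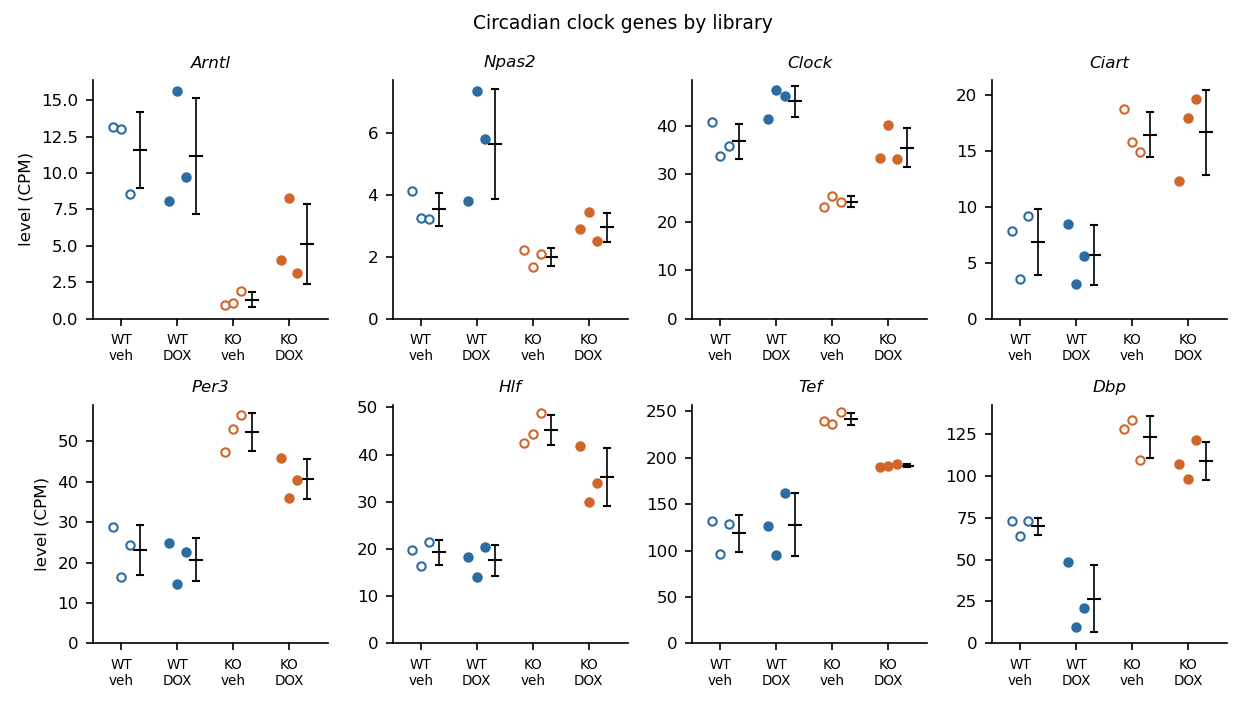
Level of 8 clock genes in each library (vertical axis, CPM), with WT in blue, KO in orange, vehicle as open and DOX as filled points, and black bars for the mean and SD of the 3 libraries of a group. Arntl, Npas2 and Clock are lower and Ciart, Per3, Hlf, Tef and Dbp higher in KO under each treatment, with overlap of single libraries for Arntl under DOX.

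The 250 bases before the start of transcription were read from RefSeq's promoter table (GRCm38.p6) for the clock genes named here other than Per2 and Cdkn1a. They were searched on both strands for CACGTG (E-box), TTANGTAA (D-box) and TAGGTCA (ROR element). Of the 32851 promoters listed there 6.02% held the first, 2.06% the second and 2.23% the third in such a window. Among those that rose, Ciart held 3 E-boxes, Tef 1 in each of its 2 promoters, Bhlhe41 1 and Per3 2 D-boxes, while Hlf, Dbp and Nr1d2 held none of the 3 motifs in this window. Arntl, Npas2 and Clock, which fell, and Nr1d1, which was not called, held none either. The Ciart and Per3 windows are shown, 5′ to 3′ on the strand of the gene with the motifs in capitals, because they hold the most motifs. The first is chr3:95882229-95882478 and the second chr4:151044666-151044915, both on the minus strand:
Ciart: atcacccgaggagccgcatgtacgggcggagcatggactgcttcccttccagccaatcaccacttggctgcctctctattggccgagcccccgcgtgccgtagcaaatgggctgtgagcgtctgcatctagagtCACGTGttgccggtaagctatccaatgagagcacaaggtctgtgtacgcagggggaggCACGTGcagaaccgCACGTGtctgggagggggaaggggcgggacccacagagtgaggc
Per3: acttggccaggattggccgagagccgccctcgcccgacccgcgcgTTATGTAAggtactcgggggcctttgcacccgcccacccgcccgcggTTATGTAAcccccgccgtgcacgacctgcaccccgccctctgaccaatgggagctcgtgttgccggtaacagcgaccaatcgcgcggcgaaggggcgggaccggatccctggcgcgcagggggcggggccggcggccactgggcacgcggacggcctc

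Ion channels of heart muscle were higher in KO where they changed. Among 40 tested genes for calcium handling or channels 4 were higher and none was lower (10%, against 1.69% of all genes called higher), with a median log2 difference of 0.25 over the list against 0.01 over all genes. Kcnh2, the pore of the rapid delayed rectifier potassium current that ends the action potential, was at 53.7, 52.2 and 58.7 CPM in WT vehicle, 60.1, 61.3 and 72.6 CPM in WT DOX, 94.5, 98.3 and 87.9 CPM in KO vehicle and 98.2, 83.4 and 81.9 CPM in KO DOX hearts (log2 difference 0.61, SE 0.09, adjusted p = 0.00645, edgeR). All 6 KO libraries were above all 6 WT libraries. Kcnj3, a subunit of the acetylcholine-gated potassium channel that is abundant in atria, was between 58.7 and 70.9 CPM in WT and between 79.3 and 133 CPM in KO hearts (0.62, SE 0.12, adjusted p = 0.0191, edgeR). Its 2 highest values, 133 and 110 CPM, were in KO vehicle mouse B and KO DOX mouse 18, the libraries high in Myl7, and without both the difference was 0.44 with an adjusted p of 0.0599; without WT vehicle mouse 3 the adjusted p was 0.0638. Slc8a1, the sodium-calcium exchanger, differed by 0.73 under vehicle and 0.28 under DOX, and Kcnq1, outside the rule for named genes, by 0.56 and 0.33. Both were lost in most fits with 1 library left out (7 of 12 and 9 of 12, adjusted p up to 0.108 and 0.105). Ryr2 and Atp2a2, the release channel and the pump of the calcium store, were not called (0.55 with adjusted p = 0.0614 and 0.41 with adjusted p = 0.0745, edgeR).

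Among genes of cyclic nucleotide signalling few calls were made apart from Pde10a. Of 20 phosphodiesterases tested Pde10a was the only one called (5%, against 2.93% of all genes). Pde1a (0.27), Pde2a (0.41), Pde3a (-0.19), Pde4d (0.28) and Pde5a (0.12) had adjusted p values between 0.286 and 0.654 in edgeR. Of 38 genes of cyclic nucleotide synthesis, receptors and kinases 2 were called, both higher (5.26%), a share near the 2.93% of all genes. Adcy5 ran from 52.3 to 74.2 CPM in WT and from 72.2 to 91.1 CPM in KO hearts (0.36, SE 0.08, adjusted p = 0.0358, edgeR), and Bves, a cAMP-binding membrane protein of heart muscle, from 53.6 to 60.03 CPM in WT and from 62.4 to 73.2 CPM in KO hearts (0.26, SE 0.06, adjusted p = 0.0395, edgeR). With 1 library left out Adcy5 was called in 4 of 12 fits and Bves in 3, with adjusted p up to 0.0962 and 0.0975. None of 19 CREB and cAMP response genes was called, with median log2 differences of -0.06 under vehicle and -0.63 under DOX.

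Further genes of various functions fell alike. Nmrk2, a kinase that makes NAD precursors and is induced in strained muscle, was at 4.01, 5.803 and 4.72 CPM in WT vehicle, 8.91, 9.36 and 10.5 CPM in WT DOX, 0.988, 1.92 and 1.28 CPM in KO vehicle and 5.20, 1.57 and 4.66 CPM in KO DOX hearts (log2 difference -1.54, SE 0.25, adjusted p = 0.0108, edgeR). Hrct1 ran from 4.69 to 7.10 CPM in WT and from 2.76 to 3.59 CPM in KO hearts (-0.87, SE 0.13, adjusted p = 0.00722, edgeR). Tnfrsf12a, the receptor for the cytokine TWEAK, lies on chromosome 17 at chr17:23675445-23677468. It was at 28.1, 66.7 and 70.8 CPM against 22.2, 28.0 and 16.6 CPM under vehicle and at 48.7, 88.8 and 103 CPM against 34.1, 48.7 and 44.7 CPM under DOX (-1.11, SE 0.24, adjusted p = 0.0354, edgeR). Gdf15, a cytokine released by stressed cells, was between 0.873 and 4.20 CPM in WT and between 0.418 and 1.02 CPM in KO hearts (-1.41, SE 0.34, adjusted p = 0.0442, edgeR). With 1 library left out Tnfrsf12a was called in 3 of 12 fits, those without WT vehicle mouse 1, WT DOX mouse 21 or KO DOX mouse 19, and Gdf15 in 2, those without mouse 1 of WT vehicle or mouse 21 of WT DOX. Igfals, which carries insulin-like growth factors in blood, is also on chromosome 17, at chr17:24865997-24882010. It fell by 1.151 (SE 0.25, adjusted p = 0.0354, edgeR) and was called in 4 of 12 such fits. For Tnfrsf12a and Igfals KO DOX mice 19 and 20 had the highest KO levels, as for Atp6v0c, Rnps1 and Zfp52.

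Other genes rose alike. Grin2d, a subunit of the NMDA glutamate receptor, was at 1.07, 0.933 and 0.873 CPM in WT vehicle, 0.683, 0.400 and 0.634 CPM in WT DOX, 1.75, 1.96 and 1.96 CPM in KO vehicle and 1.85, 1.57 and 2.20 CPM in KO DOX hearts (log2 difference 1.33, SE 0.20, adjusted p = 0.00722, edgeR). Mfsd4a, a solute carrier, ran from 1.24 to 2.00 CPM in WT and from 2.49 to 5.46 CPM in KO hearts (1.41, SE 0.21). Clvs1, a lipid-binding protein of endosomes, ran from 0.374 to 0.933 CPM in WT and from 1.10 to 2.52 CPM in KO hearts (1.58, SE 0.27). Vipr1, a receptor for vasoactive intestinal peptide that raises cAMP, was at 0.890, 0.933 and 0.754 CPM against 2.28, 1.47 and 1.79 CPM under vehicle and at 0.395, 0.291 and 0.230 CPM against 0.827, 1.43 and 1.04 CPM under DOX (1.43, SE 0.23). Their adjusted p values in edgeR were 0.00795, 0.0127 and 0.0102. Abat, which breaks down the transmitter GABA (1.22), Ptgs2, the inducible prostaglandin synthase (1.61), and Marveld2, a tight junction protein (1.24), were each called in 6 of 12 fits with 1 library left out. Ptgs2 was highest in KO vehicle mouse B (3.96 CPM) and KO DOX mouse 18 (2.72 CPM), and without both it differed by 0.99 with an adjusted p of 0.0874 in edgeR.

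Ifi208, an interferon-inducible gene of the p200 family of DNA sensors on chromosome 1, was nearly absent from the KO libraries and is named after its values were seen, since its mean is below the level set for named genes. It had 36, 38 and 47 counts in WT vehicle and 41, 66 and 29 counts in WT DOX libraries, against 0 in all 3 KO vehicle libraries and 1, 0 and 1 in the KO DOX libraries. Its level in KO relative to WT was 0.00827 (95% interval 0.000996 to 0.0302, exact binomial, counting error only; adjusted p = 3.53e-05, edgeR). Gm36684 had the reverse pattern, with 1 count over the WT libraries and between 25 and 64 in each KO library, a level 276 times that of WT (95% interval 49.1 to 10950). No other of the 10 tested p200 family genes was called. Among clone-type names 20 of 31 alike genes were higher and 11 lower. Gm49980 rose from between 0.182 and 0.754 CPM in WT to between 1.66 and 2.09 CPM in KO hearts (1.97, SE 0.25, adjusted p = 0.00341, edgeR), and Gm45716 fell from between 9.88 and 18.2 CPM to between 6.80 and 10.4 CPM (-0.74, SE 0.13, adjusted p = 0.0147, edgeR).

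Cytosolic ribosomal and translation genes were, of the lists used here, the one with the most members lower, with 11 of 44 lower and none higher (25%, against 1.24% of all genes called lower), 9 of them alike, and with all 44 below 0 at a median of -0.41. Rpl38 was at 37.9, 72.8 and 48.7 CPM in WT vehicle, 39.9, 36.1 and 35.1 CPM in WT DOX, 29.7, 30.3 and 27.3 CPM in KO vehicle and 27.8, 27.5 and 26.8 CPM in KO DOX hearts (log2 difference -0.65, SE 0.14, adjusted p = 0.0323, edgeR). Rps2 (-0.66) and Rpl12 (-0.53) also fell, with Rps2 larger under vehicle (-0.88) than under DOX (-0.43). Rps2 lies on chromosome 17, at chr17:24718116-24721929. With 1 library left out Rpl12 was called in 4 of 12 fits (adjusted p up to 0.0863, edgeR). WT vehicle mouse 2, the library with the low mitochondrial share, had the highest level of all 12 for Rpl38, Rps2 and Rpl12. The calls of Rpl38 and Rps2 were made without it, but both were lost without WT vehicle mouse 3 or any of the 3 KO vehicle mice, Rpl38 also without KO DOX mouse 20 and Rps2 without KO DOX mouse 18 (adjusted p up to 0.0836 and 0.0816).

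Nuclear genes of oxidative phosphorylation gave no call. Their medians were -0.49 under vehicle and 0.07 under DOX for 36 complex I genes, and -0.45 under vehicle and 0.04 under DOX for 41 genes of complexes II to V. Genes of iron handling were called in both directions. Fth1, the heavy chain of the iron store ferritin, was between 1582 and 2710 CPM in WT and between 1383 and 1901 CPM in KO hearts (-0.40, SE 0.09, adjusted p = 0.0437, edgeR). Steap3, a reductase that frees iron in endosomes (0.43), and Aco1, which binds iron-responsive RNA when iron is low (0.25), were higher. With 1 library left out Fth1 and Aco1 were each called in 2 of 12 fits and Steap3 in 6. Of 29 antioxidant genes 3 were called (10.3%, against 2.93% of all genes), with Nnt higher and 2 lower. Of these 2, Sod1, the cytosolic superoxide dismutase, fell alike (-0.60, SE 0.13, adjusted p = 0.0323, edgeR) and Srxn1 fell more under DOX (-0.59 and -1.42). With 1 library left out they were called in 5 and 3 of 12 fits, with adjusted p up to 0.0861 and 0.0979. Of 34 heat shock and unfolded protein response genes 3 were called, all lower (8.82%, against 2.93% of all genes). Hspb6 (-0.32) and Atf4 (-0.43) fell alike and Atf3 mainly under DOX (-1.32 and -3.85). For Atf3, WT DOX mouse 22 had 128 CPM and the other WT libraries between 4.54 and 17.2 CPM. Hspb6 and Atf3 were called in 2 of 12 fits with 1 library left out and Atf4 in 1, with adjusted p up to 0.117. Genes known to respond to RNA quality and to the stress of dissection were lower beside these: 18 of 19 were below 0 (median -0.45 under vehicle and -0.53 under DOX), and 3 were called (15.8%, against 2.93% of all genes), Atf3, Jund (-0.73) and Klf4 (-0.52). Jund was called in 5 of 12 fits with 1 library left out and Klf4 in 1. The part of RNA quality and dissection in the falls of stress genes was not tested.

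Markers of other cell types gave few calls. None of the tested markers of neutrophils (9), macrophages (20), T and NK cells (3), B cells (5), smooth muscle cells and pericytes (17), Schwann cells and neurons (14), adipocytes (13), erythroid cells (9) or atrial muscle (12) was called, nor was any of 42 interferon response, 17 MHC class I or 8 MHC class II genes. Of 22 endothelial markers 1 was lower, Pecam1 (-0.25), of 15 mesothelial and lymphatic markers 1, Wt1 (-0.61), and of 40 fibroblast and matrix genes 1 was higher, Col8a1 (0.97), all 3 named after their values were seen. These shares were 4.55%, 6.67% and 2.5%, against 2.93% of all genes. Of 9 skeletal muscle markers 1 was higher (11.1%), Neb, which was not alike and is also named after its values were seen. With 1 library left out Pecam1 and Col8a1 were called in 2 of 12 fits and Wt1 in 3. Without a call, the list medians were 1.86 under vehicle and 1.06 under DOX for atrial, 0.15 and 5.40 for erythroid, and -0.08 and 2.63 for adipocyte markers. Summed levels under DOX did not follow the last 2 lists' medians. Erythroid sums were 172, 172 and 186 CPM in WT DOX and 182, 404 and 251 CPM in KO DOX hearts. Adipocyte sums were 671, 1386 and 1227 CPM in WT DOX and 857, 712 and 559 CPM in KO DOX hearts. The list medians were 1.61 and -2.16 for neutrophil markers, whose sums were 115 and 59.3 CPM in WT DOX mice 22 and 24 and between 12.2 and 22.1 CPM in KO hearts, and -1.26 and 0.27 for MHC class II genes. Summed atrial markers ranged from 1268 to 4824 CPM in KO and from 1012 to 2649 CPM in WT hearts. Nppa and Nppb, the natriuretic peptides, and Myh7, the slow myosin, were not called (1.96, -0.46 and -0.56, adjusted p = 0.0952, 0.396 and 0.553, edgeR), and Myh7 changed sign between vehicle (0.59) and DOX (-1.71).

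The calls differ in how far they rest on single libraries. Leaving out each of the 12 libraries in turn, 72 of the 433 genes were called every time, 66 of them alike, 45 higher and 27 lower. The 45 include Kap, of the kidney list, which was not alike. Of the 65 called genes that the naming rule gave, 26 were called every time, among them Pde10a, Wdfy1, Atp6v0c and its pseudogene, Gm9825, Tmem181a, Tmem181c-ps, Rsph3b, Zfp52, Cdkn1a, Hlf, Per3, Tef, Ciart, Bhlhe41, Clock, Kcnh2, Grin2d, Nmrk2 and Hrct1. With KO vehicle mouse B and KO DOX mouse 18 both left out, 61 genes were called and 52 alike, of which 56 and 46 were among the 433 and the 353, and 22 of the 26 were called, without Bhlhe41, Clock, Clvs1 and Tef. With no treatment term in the fit 39 of the 65 were called, 23 of the 26 among them, without Clock, Nmrk2 and Vipr1. The titles of 5 KO and 3 WT libraries end their first number with a suffix of 1, whose meaning the labels do not give. With that suffix as a further term in the fit 28 of the 65 were called, the 26 among them, and those lost included Nnt, Dbp, Ccng1, Kcnj3, Slc8a1, Adcy5, Bves, Tnfrsf12a, Gdf15, Igfals, Abat, Ptgs2, Marveld2, Rpl38, Rps2, Rpl12, Fth1, Steap3, Aco1, Sod1, Srxn1, Hspb6, Atf4, Atf3, Jund and Klf4.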

How the data were processed

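Counts of reads per gene symbol, deposited by the authors as 1 table per library, are raw and not normalized. The submitters' processing notes name fastp 0.20.0, STAR 2.7.0f, Subread 1.6.4 and featureCounts. The sources used here do not give the genome build, annotation or strand setting. The protocol in the labels names a stranded mRNA kit.

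Of 55453 symbols, 14757 passed edgeR's filter by the 4 groups. Tests were edgeR 4.0.16 quasi-likelihood tests in R 4.3.3 with TMM scaling and a threshold of 0.05: treatment plus genotype for the average, and 1 mean per group for the differences under vehicle and DOX and for the difference between them. limma 3.58.1 and DESeq2 1.42.0 were alternatives. Nothing in the labels says that libraries are from separate litters or days, so p-values measure only the spread between these samples. Positions are from GENCODE M21 (GRCm38), matched by symbol for 54510 symbols, and promoters from RefSeq. On simulated counts for 14757 genes the averaged test recovered 86% of genes changed 2-fold and 45% of those changed 1.5-fold. The simulated counts had no treatment effect and no outlying library, and their spread followed the general trend with level. They therefore do not show how single libraries affect recovery in these data.

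Named genes were Pde10a, the 12 highest and 12 lowest alike genes whose log2 CPM averaged 0 or more and whose libraries did not overlap within a treatment, up to 3 called genes of each list, 3 clone-type names a direction and a set of heart and clock genes. The comparison, gene lists and named genes were chosen with earlier results of these data known. Intervals and limits cover counting error only. A withheld item is not reported here.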

Additional observations from a re-analysis of the deposited data

How the results depend on the processing

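The number of genes called depended strongly on the method and on single libraries, and the text's 433 called and 353 alike genes are given with that limit. The averaged comparison called 284 genes (223 alike) with no scaling beyond totals, 1006 (596) with no filter on low counts, 1270 (842) with DESeq2, 857 (537) with limma-voom and quality weights, 677 as the average of the differences within treatments, 209 (177) with no treatment term and 85 (78) with the title suffix of 5 KO and 3 WT libraries as a term. Without scaling the calls were 190 higher and 94 lower. Without KO vehicle mouse B and KO DOX mouse 18 it called 61 (52). Leaving out each library in turn gave 80 (without WT vehicle mouse 3) to 733 (without WT vehicle mouse 1) called and 72 to 485 alike. The averaged count moved by more than 1.5 times without any library other than WT DOX mouse 21 and WT vehicle mouse 2: 176, 245 and 103 without KO DOX mice 18, 19 and 20, 191 and 278 without WT DOX mice 22 and 24, and 127, 106 and 97 without KO vehicle mice A, B and C. Under vehicle the count was 1682 with DESeq2, 222 from the 6 vehicle libraries alone and 42 to 2670 with 1 library left out. Under DOX it was 473, 5, and 8 to 727. The difference between treatments gave 373 with DESeq2 and 0 to 515 with 1 library left out. The 0 was without KO DOX mouse 20, where edgeR gave 1622 genes at an unadjusted p under 0.05. Nr1d1 changed sign with limma-voom (-0.0065) and without WT DOX mouse 24 (-0.0045, with 1 library left out up to 0.407), and Pde1a without KO vehicle mouse B and KO DOX mouse 18 (-0.010). The causes were not tested. Pde10a stayed called and higher throughout, between 1.97 and 2.33. No paired analysis was possible because the groups compared share no replicate numbers.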
